A study of Mus musculus with 15 samples.

Results

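The H3K4me3 landscape of untreated wild-type (WT) mBA cells was described from the single list of peaks called for that condition. All peaks on chromosomes 1 to 19 were taken, 11988 of the 12342 peaks of the list, and ranked by area and by width. The series holds 41519 peaks in 3 lists, and the lists of the other conditions (WT cells given 2-hydroxyglutarate, and CLPP-KO cells) were not compared here. H3K4me3 was measured by ChIP–seq, in which DNA bound to the modified histone is pulled down with an antibody and sequenced. The WT group comprised 4 ChIP samples with no genetic change and no treatment, and 1 sample of input DNA, out of 12 ChIP samples in 3 conditions. The labels describe mBA cells as primary cells from mouse brown adipose tissue. The methods of the study describe immortalized brown preadipocytes, carrying the SV40 large T antigen, that were differentiated in culture with insulin, thyroid hormone, dexamethasone and a phosphodiesterase inhibitor. The cells were thus a culture model, and undifferentiated cells could remain in it.

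H3K4me3 is the trimethylation of lysine 4 on histone H3, placed at the starts of active and poised genes by the SET1 and MLL complexes. It lies on the first nucleosomes downstream of a start site and is found above all at CpG islands, stretches where the dinucleotide CpG has been kept. Broad domains of the mark are known from genes that control cell identity. In brown adipocytes, the factors PPARγ, C/EBPα, C/EBPβ and PRDM16 switch on the fat and heat programmes, and UCP1 uncouples respiration in the mitochondria to release heat.

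Peaks for the 4 replicates were called together, so each peak has 1 value and the replicates cannot be set beside each other. No test between samples was possible, and the values below describe 1 list. The area of a peak is the area under its curve of −log10 p as the peak caller gave it, and it grows with width by construction. The area per base was as low as 0.22, and no summit −log10 p was below 2.83. These are minima over all peaks and do not settle the baseline from which the area was counted. That baseline is not given in the sources used here. The area per base, the area divided by the width, was used as a measure of height. Percentiles place a peak among the 11988, with 100 as the highest. Intervals are 95% Wilson intervals for shares and binomial order-statistic intervals for medians, and both cover counting error only.

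The sequences just before a few start sites are shown as examples, and the marked and unmarked ones among them overlap in CpG content. The 120 bases upstream of a start are given 5′ to 3′ on the gene's strand, from GRCm39, with each CpG in capitals. Irf2bpl and Anp32a carried the strongest and the widest peak, Cebpa and Cebpb carried strong peaks, and Pparg had a weak peak at its start 1 and none at its start 5. Ucp1 and Adipoq had no peak, and neither did Actg1 (cytoplasmic γ-actin), the CpG-rich exception among the housekeeping genes.
Irf2bpl (chr12:86931573-86931692, minus strand): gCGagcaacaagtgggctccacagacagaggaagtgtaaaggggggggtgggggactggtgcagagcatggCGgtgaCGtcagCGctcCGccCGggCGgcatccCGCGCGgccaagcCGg
Anp32a (chr9:62248487-62248606, plus strand): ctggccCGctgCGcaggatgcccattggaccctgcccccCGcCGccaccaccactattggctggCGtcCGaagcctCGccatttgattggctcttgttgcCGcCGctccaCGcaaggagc
Cebpa (chr7:34818608-34818727, plus strand): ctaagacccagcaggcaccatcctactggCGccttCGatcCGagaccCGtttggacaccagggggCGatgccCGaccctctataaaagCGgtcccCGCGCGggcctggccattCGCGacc
Cebpb (chr2:167530715-167530834, plus strand): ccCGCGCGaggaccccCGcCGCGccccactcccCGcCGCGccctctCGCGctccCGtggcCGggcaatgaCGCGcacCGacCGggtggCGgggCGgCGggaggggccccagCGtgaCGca
Pparg start 1 (chr6:115337708-115337827, plus strand): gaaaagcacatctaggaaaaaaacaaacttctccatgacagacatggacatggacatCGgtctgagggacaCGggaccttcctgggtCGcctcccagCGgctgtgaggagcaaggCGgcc
Pparg start 5 (chr6:115398763-115398882, plus strand): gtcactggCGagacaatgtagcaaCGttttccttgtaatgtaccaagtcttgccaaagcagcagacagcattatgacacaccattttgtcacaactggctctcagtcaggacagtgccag
Ucp1 (chr8:84016821-84016940, plus strand): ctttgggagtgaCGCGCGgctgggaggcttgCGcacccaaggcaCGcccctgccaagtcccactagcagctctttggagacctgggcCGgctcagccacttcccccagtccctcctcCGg
Adipoq (chr16:22965166-22965285, plus strand): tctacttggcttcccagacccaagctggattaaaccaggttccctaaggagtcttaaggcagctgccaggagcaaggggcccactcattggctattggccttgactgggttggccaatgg
Actg1 (chr11:120239618-120239737, minus strand): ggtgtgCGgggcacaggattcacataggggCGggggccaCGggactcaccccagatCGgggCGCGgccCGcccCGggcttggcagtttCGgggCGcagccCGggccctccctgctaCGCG

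The 120 bases held 11 CpG for Irf2bpl, 10 for Anp32a, 12 for Cebpa and 22 for Cebpb. Those before Ucp1 held 7, and those before Adipoq held 0. Pparg start 1, with its weak peak, held 5, fewer than Ucp1 without a peak, and Pparg start 5 held 2. Actg1, with 13 CpG and no peak, was as CpG-rich as the strongly marked genes. Across all 20621 coding genes of chromosomes 1 to 19 the median was 5 CpG, with 8 for genes with a peak and 1 for genes without. No CpG at all was found before 1.86% of genes with a peak (203 genes) and 28.6% of genes without (2775 genes). The letters TATAAA, searched on the gene's strand from 40 to 20 bases before the start, were present in 0.559% of genes with a peak (61 genes), in 3.60% of genes without (349 genes) and in 1.99% of all coding genes (410 genes). Cebpa was among the marked genes with this match. A match is a match of letters only.

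The WT peaks lay almost entirely at gene starts. Of the 11988 peaks, 11246 were within 2000 bp of a start site of a coding gene (93.8%, 93.4 to 94.2%). Another 483 (4.03%, 3.69 to 4.40%) were near starts of noncoding genes only, 181 (1.51%) lay inside a gene away from any start, and 78 (0.651%) lay between genes. Peaks at coding promoters were also the strongest and widest class, with a median area of 3236 and a median width of 848 bp. The medians were 1060 and 596 bp at noncoding promoters, 530.1 and 483 bp inside genes, and 519.5 and 453 bp between genes.

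Peaks ranged from 46 to 4341 bp in width, with a median of 831 bp and quartiles of 601 and 1135 bp, and covered 11.05 Mb. Their areas ranged from 200.02 to 29295, with a median of 3053 and quartiles of 1196 and 5425. The top 10% of peaks by area held 29.0% of the summed area and the bottom 10% held 0.805%. Across peaks, Spearman's coefficient was 0.82 between area and width, 0.90 between area and area per base, and 0.51 between width and area per base. These coefficients are descriptions over peaks of 1 list that share their libraries. Strength and width picked partly different peaks. Of the 1199 peaks in the top 10% by area, 729 (60.8%) were also among the 1200 in the top 10% by width.

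**Figure D1:**
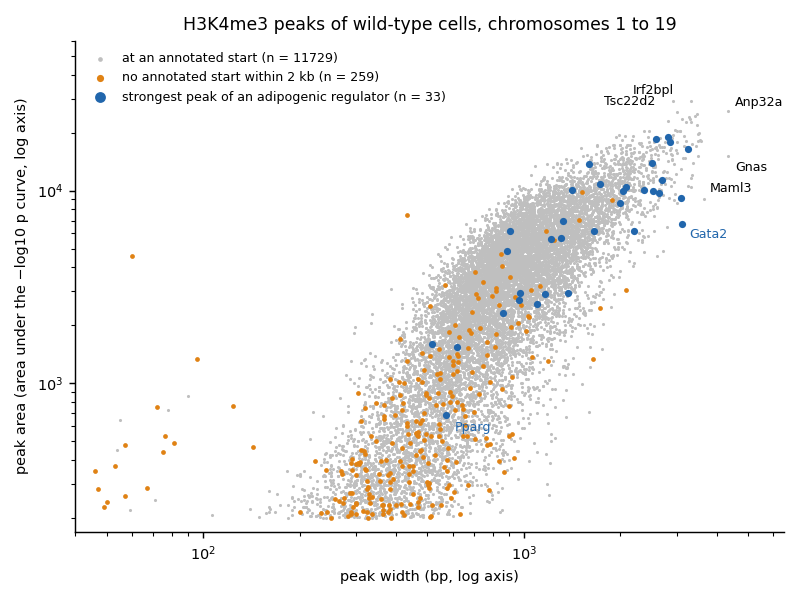
Width (bp, log axis) and area (area under the −log10 p curve, log axis) of each WT peak on chromosomes 1 to 19, with peaks at any annotated start in grey, peaks with no start within 2 kb in orange and the strongest peak of each marked adipogenic regulator in blue. Orange peaks gather at the lower left, Pparg (area 687.0, width 573 bp) sits among them, and most of the other blue points sit at the upper right.

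From the weakest to the strongest of 10 equal groups of peaks by area, the share at coding promoters increased from 81.1 to 99.1%. Median width increased from 383 to 1667 bp and GC content from 56.7 to 67.3%. The median CpG ratio (observed over expected CpG given the C and G content) went from 0.63 to 0.84. No peak of the 3 strongest groups lay between genes, against 32 peaks of the weakest group.

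Irf2bpl, a transcriptional coregulator, had the largest area of all (29295, chr12:86928358-86931674, 3317 bp). Tsc22d2, a TSC22-domain protein, followed with 29061 over 2925 bp, and Anp32a, an acidic nuclear phosphoprotein, with 25778 over 4341 bp (chr9:62247903-62252243). The next 6 were Arid1a (25653), a subunit of the BAF chromatin remodeller, the forkhead factor Foxo3 (24957), the ephrin ligand Efna5 (24298), the mRNA decay factor Zfp36l2 (24024), prothymosin Ptma (23684) and the zinc finger protein Zfp503 (23443). These 9 peaks lay at coding promoters and were at least 2925 bp wide.

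The 10 widest peaks all had an area in the top 10%, and Anp32a and Foxo3 (3468 bp) were among the 10 strongest too. Gnas, which encodes the stimulatory G protein α subunit that couples β-adrenergic receptors to cyclic AMP, had the second widest peak (4333 bp, chr2:174168828-174173160) with an area of 15068. Maml3, a Notch coactivator, had a peak of 3656 bp and the lowest area of these 10, 8999. The others were at the transcription factors Tshz3 (3565 bp) and Gata6 (3488 bp), the ubiquitin ligase Trim8 (3543 bp), the cadherin Fat4 (3527 bp), the BAF subunit Arid1b (3509 bp) and the adhesion receptor Adgrl2 (3501 bp). In all, 391 peaks were 2000 bp or wider.

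Ranking by height gave other peaks. Among peaks of 500 bp or more, the highest area per base was at the salt-inducible kinase gene Sik1 (12.3 over 1086 bp). It was followed by the peak shared by the starts of profilin Pfn1 and the enolase Eno3 (11.7), by Arpc2 of the actin-nucleating Arp2/3 complex (11.4), by the shared start of Arid4b and Ggps1 (11.1) and by the ribosomal protein gene Rpl13 (11.04). These 5 peaks were 921 to 1505 bp wide, and none of them was among the 10 strongest or widest.

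The weakest peaks were a mixture. The smallest area was 200.02 over 321 bp at the proprotein convertase gene Pcsk4, and the 10 smallest all lay between 200.02 and 201.44. Of these 10, 7 were at coding promoters, those of Pcsk4, the actin-related Actr6, the procollagen processing enhancer Pcolce, the kinase-like Fam20a, the homeobox factor En1, the Rab5 regulator Rin2 and the adhesion protein Adam22. Another 2 lay inside genes and 1 between genes. Their widths, 184 to 387 bp, were all below the lower quartile of 601 bp. Since no smaller area is listed, a promoter with less signal would have no peak.

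A coding gene was called marked when a peak lay within 2000 bp of any of its start sites, and its strongest such peak was used. Of 20621 coding genes, 10916 were marked (52.9%, 52.3 to 53.6%). For 9699 of the marked genes (88.9%) a start site lay inside a peak. Most marked genes (8995, 82.4%) had 1 peak, 1700 had 2 and 221 had 3 or more. Most peaks at coding promoters served 1 gene (9492 peaks), and 1652 peaks (14.7%) lay at the starts of 2 coding genes, so classes with paired genes count some peaks more than once.

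Marked and unmarked genes differed widely in promoter sequence. Over the 1001 bases centred on the start, the median CpG ratio was 0.75 for marked and 0.23 for unmarked genes, with GC contents of 59.8 and 48.8%. When coding genes were split into 10 equal groups by CpG ratio, the share marked was 1.60% in the lowest group, 10.2% in group 3, 54.3% in group 5, 84.6% in group 7 and 94.4% in the highest. The median area percentile of the marked genes did not follow this course at low CpG. It was 53.0 in the lowest group (33 marked genes), 37.4 in group 5 and 75.7 in the highest.

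**Figure D2:**
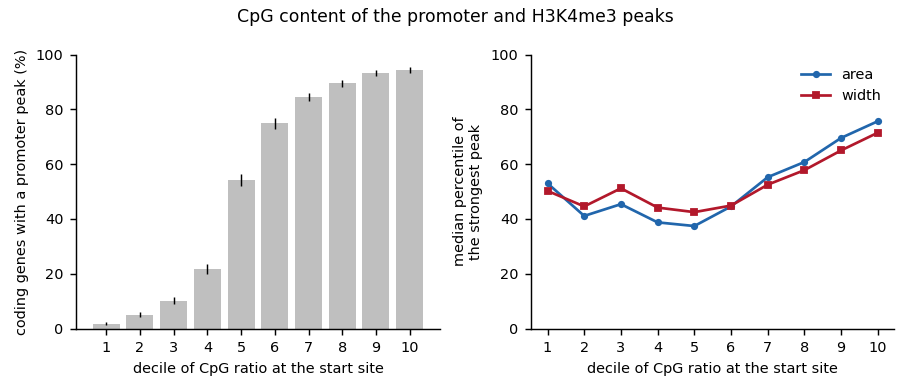
Share of coding genes with a promoter peak (percent, with 95% Wilson intervals) and median area percentile of the marked genes, by CpG ratio at the start site in 10 equal groups. The share climbs from 1.60 to 94.4%, while the median percentile falls to 37.4 in group 5 before it climbs to 75.7.

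The mark lay downstream of the start. For 4443 peaks with the principal start of a single coding gene inside them, the median peak reached 112 bp upstream and 813 bp downstream. The summit was a median of 291 bp downstream of the start, and 93.2% of the summits were downstream. Peaks with a larger area reached further downstream, but area grows with width by construction, so this was largely set by the ranking. When these peaks were split into 3 equal groups by area, the downstream reach was 574, 802 and 1123 bp from weakest to strongest, and the upstream reach 102, 89 and 183 bp. For 1359 genes whose peak lay at the starts of 2 or more coding genes, the reach was more symmetrical, with medians of 378 bp upstream and 747 bp downstream. Such a peak could be measured once from each gene. For genes on opposite strands this evens out the 2 sides by construction.

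**Figure D3:**
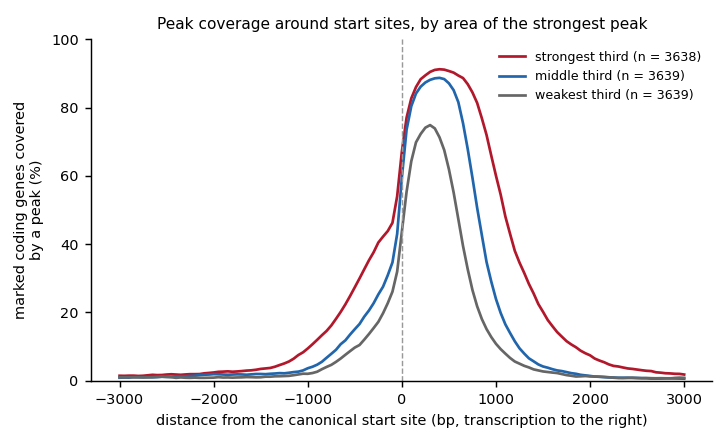
Percent of marked coding genes with a WT peak at each distance from the principal start site (bp, downstream positive), for genes split into 3 equal groups by the area of the strongest peak. Coverage is highest 400 bp downstream in the strongest (91.3%) and middle (88.7%) groups and 300 bp downstream in the weakest (74.9%), and is lower at the start itself in each group (67.1, 59.5 and 43.7%).

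The 5 brown adipocyte markers did not all carry the mark. Cebpb (area 11398, 2693 bp, chr2:167530593-167533285) and Cebpa (9904, 2538 bp, chr7:34817486-34820023) were at the 97.0 and 94.8 percentiles. Pparg, the master regulator of fat cell formation, had a weak peak (687.0, 573 bp, chr6:115337773-115338345) at the 16.2 percentile. Fabp4, the fatty acid binding protein of fat cells, and Ucp1 had no peak, and the nearest peaks were 122226 and 41478 bp from the closest start of any transcript of the gene. For 2 of the 5 markers no peak was listed, so the list alone does not bear out the label at all 5, and the peaks are called WT peaks here. The paper reports multilocular lipid droplets and a strong rise of UCP1 in these cells after differentiation. The CpG ratio at the Ucp1 start was 0.44. Whether Fabp4 and Ucp1 were expressed was not tested here.

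Pparg has several promoters, and the mark was at 1 of them. The starts of its coding transcripts fell into 5 groups when starts within 500 bp were joined. The peak overlapped start 1 (chr6:115337675-115337984, CpG ratio 0.92), to which 17 transcripts belonged. Start 2, which the annotation treats as the principal start, was 908 bp from the peak. Start 5 (chr6:115398883-115399015, CpG ratio 0.20), where the fat-specific isoform PPARγ2 begins, was 60538 bp from the nearest peak. Starts 1 and 5 are the Pparg sequences shown above.

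Adipogenic transcription regulators were marked in 33 of 37 cases (89.2%, 75.3 to 95.7%), against 52.9% of all coding genes. Their peaks were large in area and, above all, wide. The median area percentile was 85.2 (76.4 to 95.1), against 59.1 for all marked coding genes. The median width percentile was 92.9 (79.1 to 98.7), against 57.7. That of area per base was 62.1 (42.7 to 73.6), an interval that included the 58.0 of all marked coding genes. Of the 33, 16 (48.5%) were in the top 10% by area, a class that held 12.6% of all marked coding genes. By width, 18 (54.5%) were in the top 10%, against 12.5%, and none was in the bottom 10% by area, against 5.03%.

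The early adipogenic factors were all marked (8 of 8). Their median area percentile was 95.4 (44.1 to 99.8), with an interval that included the 59.1 of all marked coding genes. Klf4 was the strongest at 19084 over 2812 bp, at the 99.8 percentile. Cebpd, partner of Cebpb, had 10402 and the glucocorticoid receptor gene Nr3c1 had 10858. Klf5 (10038) and Stat5b (6924) followed, and Stat5a (2947) and Egr2 (2589), which had 3 peaks along its starts, were the weakest of the group. Of the terminal factors 7 of 8 were marked. The corepressor Tle3 (13933), Cebpa (9904), Klf15 (8644), Zfp467 (5607) and the PPARγ partner Rxra (4866) were well above Srebf1 (1595), the driver of lipogenic genes, and Pparg (687.0). Nr1h3, which encodes the oxysterol receptor LXRα, had no peak within 7692 bp.

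Brown lineage factors were marked in 10 of 13 cases, with a median width percentile of 92.3 (58.0 to 99.7). Nfib (16444, 3256 bp) and Nfia (13701, 1594 bp), which open brown fat enhancers, were the strongest. Ppargc1b (9769) and the brown fat determinant Prdm16 (9188) came next, and the Prdm16 peak was 3104 bp wide, at the 99.7 percentile of width. Ebf3, Zfp423 and Zfp516 had nearly the same area (6208, 6190 and 6184). Esrra (2944), Ppara (2926) and Ebf1 (2315) were below the median of all peaks. Ebf2, Irf4 and Ppargc1a had no peak. Ppargc1a, the coactivator of mitochondrial biogenesis, was 545659 bp from the nearest peak, while its relative Ppargc1b was in the top 10%.

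Repressors of adipogenesis were all marked (8 of 8). Their median area percentile was 89.5 (30.0 to 99.7) and their median width percentile 97.9 (27.1 to 99.7). Both intervals included the medians of all marked coding genes, 59.1 and 57.7. Klf2 had an area of 18583 and Foxo1, which insulin signalling restrains, 17866. Ncor1 (10101) and Nr2f2 (10000) were weaker by area, and Gata2 (6714) had a peak of 3115 bp that was wide for its area. Ddit3 (5651), Sirt1 (2701) and Gata3 (1544) were the lowest.

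Thermogenic genes were marked in 13 of 33 cases (39.4%, 24.7 to 56.3%). The interval includes the 52.9% of all coding genes. Their median area percentile was 44.9 with a wide interval (27.4 to 94.1), and 3 (23.1%) were in the top 10% by area, against 12.6%. When each peak was given to 1 gene the median was 66.3, above the 57.2 of all marked coding genes counted that way. Ucp1, the creatine kinases Ckmt1 and Ckmt2 and the creatine synthesis enzyme Gatm had no peak, nor did the brown fat enriched respiratory subunits Cox7a1 and Cox8b. Atp2a2, the calcium pump of the futile calcium cycle, had an area of 9455 and Letmd1, a mitochondrial protein needed for thermogenesis, 5699.

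Along the adrenergic pathway the mark was uneven. Gnas (15068) and the adenylyl cyclase Adcy3 (4481) were marked. Among the β-adrenergic receptors, Adrb1 had an area of 540.5 and Adrb3, the receptor of mature fat cells, had no peak, with the nearest 2320 bp away. Dio2, which activates thyroid hormone in brown fat, and the potassium channel Kcnk3 had none either. The Gnas peak lay at groups 5 and 6 of its 7 groups of starts. The upstream starts of the locus, which give rise to imprinted transcripts, had peaks at the 13.0 and 1.88 percentiles.

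Of the thermogenic lipid genes, Pdk4 alone was marked (1702). Cidea, Elovl3, Cpt1b, Slc27a2 and Acot11 had no peak. The secreted factors Vegfa (13023), Nrg4 (1825) and Bmp7 (537.5) were marked, and Fgf21 and Bmp8b were not. Among lineage markers, Mtus1 (7178), Epsti1 (1590) and Zic1 (1361) were marked, and Lhx8, Otop1, Clstn3 and S100b were not. The peaks of Nrg4 and Epsti1 were at CpG-rich starts away from the principal start, which was 42715 and 29152 bp from the nearest peak.

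Genes of lipid storage and adipokines were marked in 30 of 56 cases (53.6%, 40.7 to 66.0%), a share like that of all coding genes, and their median area percentile was 62.3 (49.7 to 73.4). Enzymes of fatty acid and triglyceride synthesis were marked in 12 of 17 cases and insulin signalling and glucose uptake genes in 4 of 6. Uptake and binding genes were marked in 6 of 11, lipolysis genes in 3 of 6, lipid droplet proteins in 3 of 9 and adipokines in 2 of 7. The intervals of these shares all included 53.6%.

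Fasn, fatty acid synthase, was the strongest of the synthetic enzymes at 9155. Gpam (7837.3), which starts triglyceride assembly, and the elongase Elovl6 (6833) followed, then Me1 (5241), Acaca (5234), Pcx (4135), Acly (3862), Agpat2 (3441) and Dgat1 (3024). Lpin1 (1534), Dgat2 (1435) and Scd2 (858.5) were weak, and Scd1, Acacb, Gpd1, Thrsp and Pck1 had no peak. The insulin receptor substrates Irs2 (13758) and Irs1 (11861) were in the top 10%, and the receptor Insr (6529) and the constitutive glucose transporter Slc2a1 (4848) were marked. Slc2a4, the insulin-responsive transporter GLUT4, was not, and neither was Adig.

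Among uptake genes the caveolar coat protein Cavin1 was the strongest (15615, 99.2 percentile). Acsl1 (6812), Slc27a4 (3461), Cav2 (1865), Slc27a1 (1755) and Fabp5 (911.5) were marked. Fabp4, Cd36, Lpl, Gpihbp1 and Cav1 were not, and Cd36 was 470559 bp from the nearest peak. Of the lipases and their cofactors, Pnpla2 (4548), Abhd5 (4233) and Mgll (3222) were marked, and Lipe, G0s2 and Aqp7 were not. Fitm2 (4003), Bscl2 (736.5) and Plin2 (627.3) were the marked lipid droplet genes. Plin1, Plin3, Plin4, Plin5, Cidec and Fitm1 had no peak, and Plin1 and Cidec were 7445 and 6778 bp from the nearest. Adipoq, Lep, Retn, Cfd and Angptl4 had none, whereas Nampt (6766) and Rbp4 (513.4) did.

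**Figure D4:**
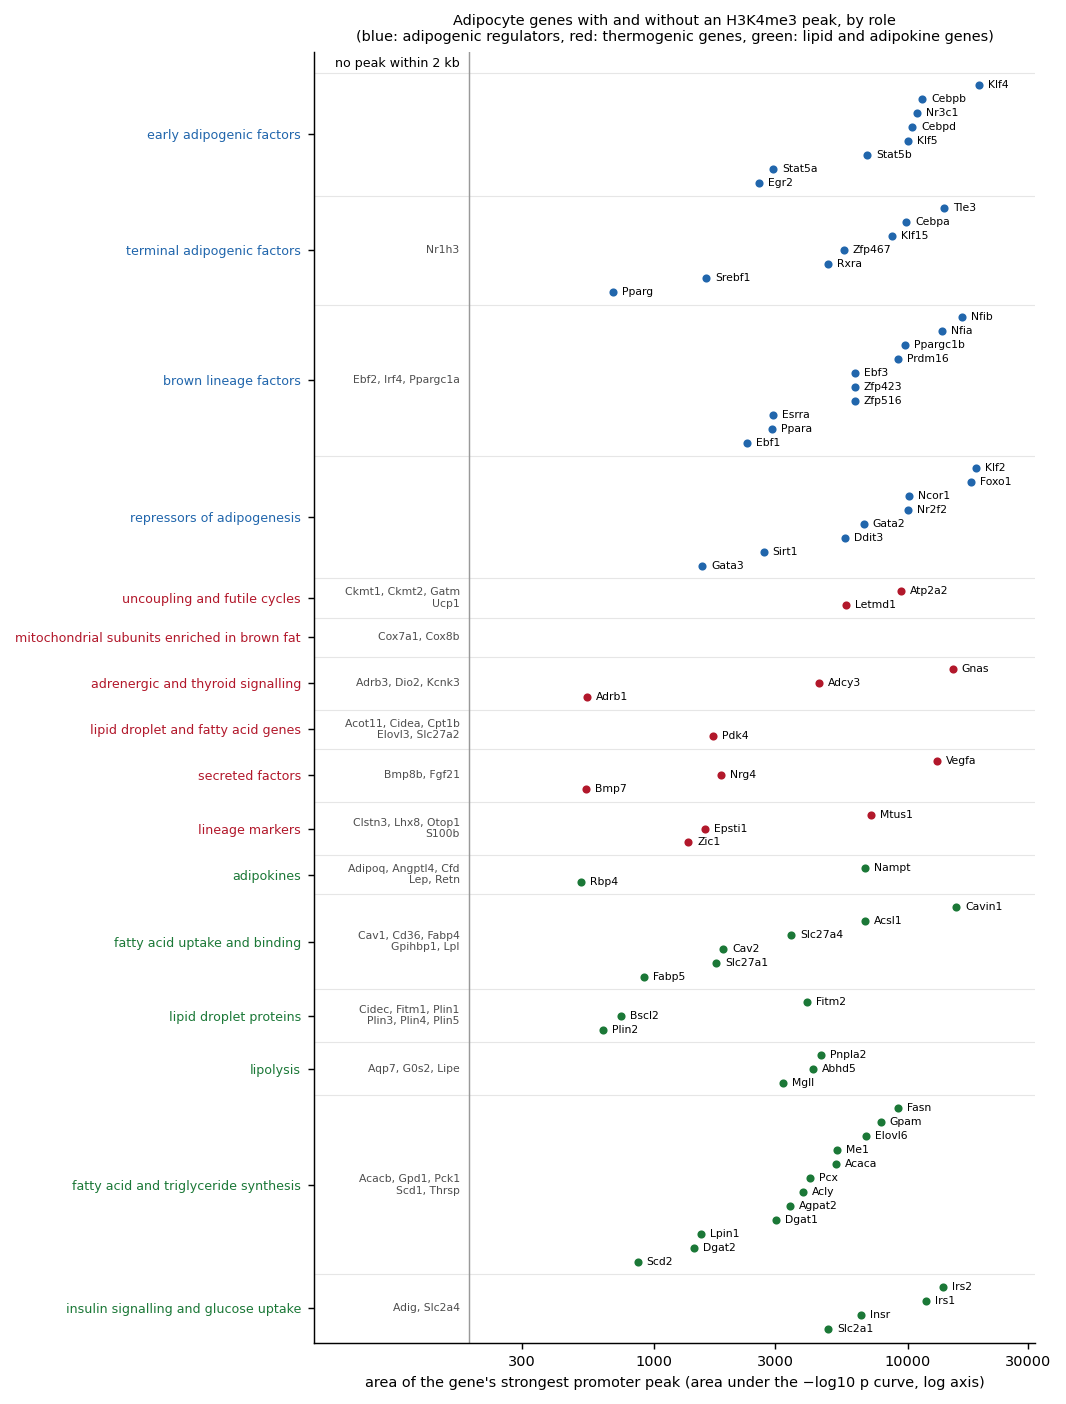
Area of the strongest promoter peak (log axis) of each adipocyte gene by role, with genes without a peak named at the left; adipogenic regulators are blue, thermogenic genes red and lipid and adipokine genes green, and 1 marked thermogenic gene is not drawn. Regulators fill the right side (33 of 37 marked), and 20 of 33 thermogenic and 26 of 56 lipid and adipokine genes stand at the left.

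The adipocyte genes without a peak were mostly genes with few CpG. In the lower 5 groups of CpG ratio, 3 of 6 adipogenic regulators, 3 of 19 thermogenic genes and 9 of 34 lipid and adipokine genes were marked, against 18.6% of all coding genes there. In the upper 5 groups the counts were 30 of 31, 10 of 14 and 21 of 22, against 87.3%. Only 6 CpG-rich genes of the 3 lists had no peak, namely Ebf2 (ratio 0.68), Slc2a4 (0.62) and the thermogenic genes Kcnk3 (0.76), Bmp8b (0.86), Lhx8 (0.69) and Cidea (0.65). CpG-rich genes outside these lists, such as Actg1 (0.83), Clpx (0.93), which encodes the chaperone partner of CLPP, and Mdh1 (0.71), were also without a peak. Whether genes without a peak carried the mark below the threshold was not tested.

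Markers of preadipocytes and fibroblasts were marked in 21 of 30 cases (70.0%, 52.1 to 83.3%), an interval that included the 52.9% of all coding genes. Their median area percentile was 69.3 (22.4 to 94.7), and by area per base the median was 43.4, below the 58.0 of all marked coding genes. Areas of the marked genes ran from 316.6 at the collagen gene Col1a2 to 17948 at Runx2. The mesenchymal regulators Zeb1 (15908), Prrx1 (13254) and Twist1 (12927) and the intermediate filament gene Vim (9809) were strong. Pdgfra, the receptor of adipocyte progenitors, had 5782 and Dlk1, which falls silent when preadipocytes differentiate, 3160. Thy1, Ly6a, Pi16, Col3a1, Dcn, Lum, Acta2, Tagln and Tcf21 had no peak. In the lower 5 CpG groups 13 of 22 of these markers were marked. The part of undifferentiated cells in the values of the adipocyte genes was not tested.

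Markers of other cell types mostly had no peak, apart from the neuronal and Schwann cell markers. Macrophage (0 of 12), lymphocyte (0 of 11) and hepatocyte (0 of 12) markers had no peak, and all of these genes were in the lower 5 CpG groups. The endothelial genes Kdr (2716), Flt1 (2007), Egfl7 (1134) and Erg (775.4) were marked, and Pecam1, Cdh5 and the other 6 were not. Of the muscle markers Ckm (962.9) was marked and Myod1, Myf5 and the other 9 were not. The peaks of Ckm and Egfl7 were away from the principal start and also counted for another coding gene. Neuronal and Schwann cell markers were marked in 5 of 10 cases, a share near that of all coding genes, with a median area percentile of 5.14. Epithelial markers had weak peaks at Cdh1 (545.3) and Esrp1 (282.1) only, among 12. In the lower 5 CpG groups 2 of 10 endothelial and 1 of 9 muscle markers were marked. There, 4 of 8 neuronal and Schwann cell and 1 of 7 epithelial markers were marked.

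Immediate early genes, which stimuli induce within minutes, were all marked (24 of 24, against 52.9% of all coding genes). Their median area percentile was 79.5 and their median width percentile 88.8. Egr1 had an area of 16539 over 3245 bp, Jund 16369 and Jun 14519, whereas Klf6 had 422.9. Of the 24, 12 were in the top 10% by width, against 12.5% of all marked coding genes. By area per base the median was 55.0, below 58.0. Reference housekeeping genes were marked in 21 of 22 cases (median area percentile 83.3), from Ywhaz (14875) to Polr2a (374.2). All 15 genes of the H3K4 methylation machinery carried the mark they place, read or remove (84.7), with the demethylase gene Kdm5b (15989) and the methyltransferase gene Setd1b (15485) the strongest. The interval of the median of each of these classes is wide, and for the immediate early genes it was 53.5 to 96.8, which included 59.1.

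Among gene families, splicing factors were marked in 49 of 54 cases (90.7%, against 52.9%), with 20 in the top 10% by area (40.8%, against 12.6%) and Hnrnpu (17007) the strongest. Cytosolic ribosomal proteins were marked in 76 of 79 cases with strong but not wide peaks (median area percentile 70.6, width percentile 60.6). Fox factors, 26 of 42 marked, had wide peaks (width percentile 89.0), led by Foxo3, Foxc1 (20504) and Foxp1 (20437). Proteasome subunits (34 of 38) had a median area percentile of 61.2 at a width percentile of 44.8.

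Genes of mitochondrial classes were mostly marked, against 52.9% of all coding genes and 87.3% of those in the upper 5 CpG groups. Subunits of oxidative phosphorylation were marked in 68 of 81 cases (median area percentile 54.8), mitochondrial ribosomal proteins in 70 of 78 (46.9, 37.1 to 55.1) and enzymes of the tricarboxylic acid cycle and of 2-hydroxyglutarate metabolism in 20 of 22 (66.8). The interval of the mitochondrial ribosomal proteins lay below the 59.1 of all marked coding genes. The upper 5 CpG groups held 19 of the 22 enzymes and all 13 of the mitochondrial proteases and chaperones given below. Uqcrh of complex III was the strongest of the respiratory subunits (15301). Clpp, the protease deleted in the CLPP-KO cells of the study, had a peak of 2185 (38.9 percentile). Among mitochondrial proteases and chaperones, 12 of 13 were marked (78.8, 38.9 to 95.3), from Hspd1 and Hspe1, which share a peak (10295), to Yme1l1 (231.5). Phgdh, which can make 2-hydroxyglutarate, had an area of 4558, and D2hgdh, which degrades the D form, had no peak.

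Potassium channels were marked in 28 of 91 cases (30.8%), against 52.9% of all coding genes. Their median area percentile was 27.7 (16.4 to 38.9), which lay below the 59.1 of all marked coding genes. Zfp genes, many of them KRAB repressors, were marked in 245 of 410 cases (59.8%) and had a median of 46.7 (42.2 to 52.3), and Wnt ligands in 12 of 19 (63.2%) with a median of 35.5 (15.7 to 58.0). Hox genes were marked in 21 of 39 cases (53.8%, median 34.2, 17.6 to 61.9) and collagens in 15 of 42 (35.7%, median 25.7, 14.1 to 59.4), with intervals that included 59.1. Cytochrome P450 enzymes (12 of 100), interleukins and chemokines (9 of 81) and serpins (5 of 62) were mostly unmarked. The median CpG ratios of their unmarked genes were 0.15, 0.22 and 0.13, and that of the olfactory receptors was 0.11. Over all unmarked coding genes the median was 0.23. Olfactory receptors had no peak in 1186 genes, which allows a share of up to 0.323% (upper Wilson bound), and keratins had 1 in 54, vomeronasal receptors 1 in 350 and defensins 1 in 70. The vomeronasal receptor and defensin peaks also counted for another coding gene, and the keratin peak was away from the principal start. Of the remaining families, cyclins and cyclin-dependent kinases (33 of 35, median area percentile 61.0), tRNA synthetases (32 of 34, 47.0), solute carriers (187 of 362, 53.1) and Sox genes (11 of 18, 46.8) had medians with intervals that also included 59.1. The shares marked of Wnt ligands, Hox genes, solute carriers (51.7%) and Sox genes (61.1%) had intervals that included 52.9%.

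**Figure D5:**
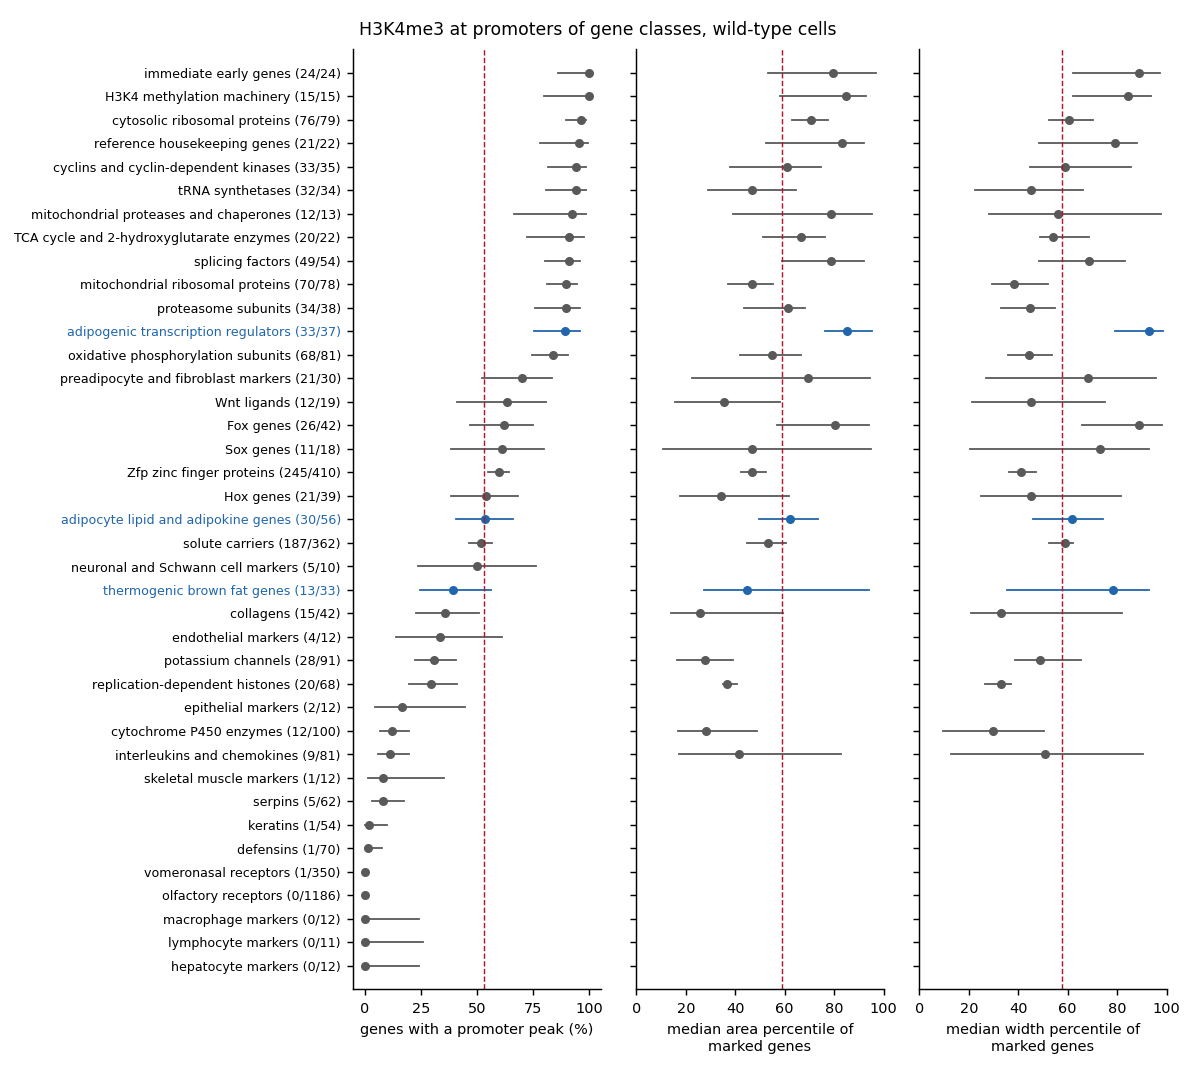
Percent of genes with a promoter peak (left, with 95% Wilson intervals), and median area percentile (middle) and width percentile (right) of the marked genes, with 95% order-statistic intervals and only for classes where these exist; adipocyte lists are blue and dashed red lines give all coding genes (52.9%, 59.1 and 57.7). Adipogenic regulators, immediate early genes and the H3K4 machinery lie to the right of the dashed line in all panels, while potassium channels and collagens lie to its left.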

How the data were processed

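H3K4me3 ChIP–seq was analysed for the WT condition (4 ChIP samples, 1 input). Per the submitters' processing notes and the methods, the authors trimmed reads with fastp 0.23.4, mapped them with BWA 0.7.17 to GRCm39, used deepTools 3.5.4, and called peaks with Genrich 0.6.1 on the 4 replicates together, with duplicates removed. For every peak the deposited list gives the area as a signal value (the area under the −log10 p curve, from a baseline not given in the sources used here), a score with a ceiling of 1000 and the −log10 p-value of the summit. The score equals 1000 times area over width, so it was at its limit for 89.2% of peaks and was not used for ranking. The q field was −1 in all 11988 peaks. The study's reporting summary describes a call with a q threshold and a minimum area, with chromosomes X and Y and a set of genomic ranges excluded. Its count of WT peaks, 12342, is that of the list, but the list departs from these settings. It gives no q-values, and its smallest area among the ranked peaks, 200.02, was well above the stated minimum. It also holds 276 peaks on chromosome X. Which settings produced the list was not tested. The reporting summary states a sequencing depth, but not for each sample, and the list holds no read counts. Whether genes without a peak lay in the excluded ranges was not tested. Both points limit what a missing peak means.

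Start sites came from the GENCODE M39 annotation of GRCm39, and sequence was read from that genome. A gene was marked when a peak overlapped the 2000 bp on either side of any of its start sites, and its strongest peak was kept. The principal start is the annotation's canonical transcript. CpG ratios were computed over 1001 bp. Genes on X and Y and on contigs, and peaks there, were left out: genes such as Slc6a8, Gk, Syp, Hprt1, Pgk1 and Idh3g thus left their lists, and Trac is not annotated as a coding gene. The members and gene lists were chosen with earlier results of these data known. The genes named were the 10 peaks with the largest area, width and smallest area, all genes of the 3 adipocyte lists, and for other classes up to 3 at either end. A few genes and peaks outside this rule (the tallest peaks, some markers, Clpp and Phgdh) were chosen after their values were seen. Some genes and sequences are not reported here. Overlaps were tested on simulated peaks and against bedtools 2.31.1. Tables and intervals were made with pandas 2.3.3, scipy 1.17.1 and numpy 2.4.6 under Python 3.11.15, and figures with matplotlib 3.10.9. Alternatives changed the window, the start sites, the area or p threshold, the assignment of genes to peaks and the ranking.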

Additional observations from a re-analysis of the deposited data

Results flagged for a closer look

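Chromosome X, outside the ranked peaks, held 276 peaks of the WT list, with a median area of 1318 and a median width of 649.5 bp. The study's reporting summary names this chromosome among the sequences excluded from the call. Unplaced or unlocalized contigs held 77, with a median area of 342.8 and a median width of 423 bp, and 1 of them had an area of 103668, above any peak of chromosomes 1 to 19.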

How the results depend on the processing

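The share of peaks at coding promoters, 93.8%, was 92.6% with a window of 1000 bp, 94.5% with 3000 bp, 88.1% with principal starts only, 96.5% for areas of at least 1000 and 95.4% for a summit p of at most 1e-05. The share of coding genes marked, 52.9%, was 51.1, 46.0 and 48.4% under the last 3 settings. The correlation of area and width, 0.82, was 0.72 for areas of at least 1000. The shares of the adipocyte lists stayed within their intervals under every alternative run, at 86.5 to 89.2% for adipogenic regulators, 33.3 to 48.5% for thermogenic genes and 44.6 to 57.1% for lipid and adipokine genes. The 3000 bp window added Adrb3, Ckmt1, Cpt1b, Acacb and Fitm1. Principal starts only removed Epsti1, Nrg4 and Acaca. Areas of at least 1000 removed Pparg, Adrb1, Bmp7, Bscl2, Fabp5, Plin2, Rbp4 and Scd2. Of 27 classes, 13 had a median area percentile above that of all marked coding genes, 14 when each peak was given to 1 gene and 10 by area per base, where the median of adipogenic regulators was 62.1. With 1 gene per peak thermogenic genes moved above it (44.9 to 66.3), and by area per base preadipocyte and fibroblast markers (43.4), immediate early genes (55.0) and cyclins and cyclin-dependent kinases (55.0) fell below it (58.0). No paired analysis was possible because peaks were called on the 4 replicates together, and for the same reason no replicate could be left out.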

Other observations

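Some strong peaks had no coding gene at their start. The strongest was at the noncoding gene Lncppara (16828, chr15:85554107-85556800, 2694 bp), followed by a peak of 3384 bp at a cluster of unnamed noncoding genes (13981, chr8:84927293-84930676). Several were at microRNA genes, namely Mir193a (9299), Mirlet7i (8825), Mir130a (8176) and Mir148a (7934), and 1 was at Dleu2 (11578), the host of a microRNA cluster. Of 31151 genes annotated as long noncoding RNA, 5218 (16.8%) had a peak within 2000 bp of a start, which can be the peak of a neighbouring coding gene. Of 18 small nucleolar RNA host genes, 11 were marked, led by Snhg9 (9329).

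Replication-dependent histone genes were marked in 20 of 68 cases (29.4%, 19.9 to 41.1%). The share was 52.9% for all coding genes and 87.3% for those in the upper groups by CpG ratio. When shared peaks were not counted again, 14 histone genes were marked. The median CpG ratio was 0.88 among the 48 unmarked genes and 0.87 among the marked ones. Why histone genes of like CpG ratio had no peak was not tested. The areas of the marked histone genes reached 5037 at H1f2, and none was in the top 10% by area.

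The peak with the highest area per base on chromosomes 1 to 19 (76.1) was 60 bp wide, with an area of 4566, and lay between genes (chr10:121599129-121599188). Its summit −log10 p of 113.3 was also the highest there. Of the 25 peaks narrower than 150 bp, 4 were at a coding promoter. The strongest peak inside a gene and away from any annotated start had an area of 9866 (chr13:31994760-31996277).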
